A study of Mus musculus with 12 samples.

Results

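Of the 15844 lysine crotonylation (Kcr) peaks called on chromosomes 1 to 19 in hippocampus of trained mice, 4726 (29.8%) lay deep inside genes, and these are described here. A peak was taken as deep inside a gene if it overlapped the body of a protein-coding RefSeq gene shorter than 500 kb and touched no window of 1 kb on either side of the start or end of any protein-coding gene. The other peaks on these chromosomes lay at gene ends (3169), inside genes of 500 kb or more (726) or outside genes (7223). All of these classes refer to protein-coding genes, so sequence outside genes includes noncoding genes and pseudogenes. The 4726 peaks were then split by whether a peak of untrained mice overlapped them by at least 1 bp.

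The study asked how lysine crotonylation bears on glutamate signalling and spatial memory in the mouse. Its chromatin immunoprecipitation sequencing (ChIP-seq) part used a pan-Kcr antibody on formaldehyde-fixed, sonicated dorsal hippocampus of C57BL/6J mice. The learning library came from mice trained in spatial object recognition, a task in which a mouse learns where objects stand, and the homecage library from mice left in their cages. Each condition was 1 antibody library, and age, sex and the number of animals behind a library were not given in the sources used here. No genetic change or drug is listed for either library. Crotonate and saline were given only to the mice of the single-nucleus libraries, which were not analysed here. The tissue is a mixture of neurons, glia and vessel cells, so a peak shared by many cells and a strong peak in a few cannot be told apart.

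Crotonylation adds a short unsaturated acyl group to lysine, drawing on crotonyl-CoA. On histones the acetyltransferases p300 and CBP can write it, class I histone deacetylases can remove it, and YEATS-domain proteins bind it. It is best known at active promoters and enhancers, where it often accompanies histone acetylation, and inside a gene body such elements can be alternative promoters or intronic enhancers.

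One set of sequences is shown first because learning peaks were frequent at alternative transcription starts inside genes, and because these starts differ in their CG content. The sequences are the 250 bases before an internal start, RefSeq, GRCm38.p6, 5′ to 3′ on the strand of the gene, with each CG dinucleotide in capitals. Mef2a (an activity-regulated neuronal transcription factor), Ubtf (a factor for ribosomal RNA gene transcription) and Cd47 (a surface protein that inhibits engulfment) had the 3 widest learning peaks that covered an internal start of a protein-coding gene and overlapped a homecage peak. Slc35d1 (a nucleotide-sugar transporter), Tmem39b (a transmembrane protein) and B3galt5 (a galactosyltransferase) had the 3 widest without a homecage peak. Fgd4, an exchange factor for the GTPase Cdc42, had neither peak within 500 bp and is the start nearest to the median composition of that group.
Mef2a: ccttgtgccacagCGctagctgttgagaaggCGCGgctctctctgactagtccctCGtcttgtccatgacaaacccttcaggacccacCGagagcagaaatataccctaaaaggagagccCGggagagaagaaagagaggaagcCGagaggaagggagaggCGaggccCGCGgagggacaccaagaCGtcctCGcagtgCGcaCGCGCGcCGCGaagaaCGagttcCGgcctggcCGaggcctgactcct
Ubtf: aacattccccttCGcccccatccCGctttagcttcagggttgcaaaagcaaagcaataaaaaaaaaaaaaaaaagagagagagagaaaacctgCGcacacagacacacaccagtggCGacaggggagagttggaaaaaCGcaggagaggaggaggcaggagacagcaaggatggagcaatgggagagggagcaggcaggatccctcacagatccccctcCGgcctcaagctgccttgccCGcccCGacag
Cd47: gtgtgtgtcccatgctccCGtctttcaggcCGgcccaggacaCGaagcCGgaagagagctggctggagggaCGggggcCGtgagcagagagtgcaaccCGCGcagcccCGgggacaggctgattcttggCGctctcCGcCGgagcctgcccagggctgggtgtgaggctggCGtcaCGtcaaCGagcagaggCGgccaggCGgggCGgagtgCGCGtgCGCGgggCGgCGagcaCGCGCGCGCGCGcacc
Slc35d1: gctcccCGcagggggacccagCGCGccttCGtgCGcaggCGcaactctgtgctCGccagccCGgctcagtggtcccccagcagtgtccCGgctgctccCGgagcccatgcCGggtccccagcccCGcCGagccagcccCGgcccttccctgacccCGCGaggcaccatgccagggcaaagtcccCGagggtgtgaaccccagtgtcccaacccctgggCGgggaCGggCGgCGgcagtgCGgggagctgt
Tmem39b: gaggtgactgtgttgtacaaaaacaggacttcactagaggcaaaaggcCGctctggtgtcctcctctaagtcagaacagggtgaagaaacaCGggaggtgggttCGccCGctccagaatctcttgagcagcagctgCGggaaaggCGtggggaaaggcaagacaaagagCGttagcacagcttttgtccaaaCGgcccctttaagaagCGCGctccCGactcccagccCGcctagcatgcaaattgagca
B3galt5: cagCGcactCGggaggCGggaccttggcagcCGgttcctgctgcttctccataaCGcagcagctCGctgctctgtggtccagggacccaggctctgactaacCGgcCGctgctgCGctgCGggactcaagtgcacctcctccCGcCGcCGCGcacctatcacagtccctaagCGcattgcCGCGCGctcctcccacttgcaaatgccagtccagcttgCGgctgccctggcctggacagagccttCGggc
Fgd4: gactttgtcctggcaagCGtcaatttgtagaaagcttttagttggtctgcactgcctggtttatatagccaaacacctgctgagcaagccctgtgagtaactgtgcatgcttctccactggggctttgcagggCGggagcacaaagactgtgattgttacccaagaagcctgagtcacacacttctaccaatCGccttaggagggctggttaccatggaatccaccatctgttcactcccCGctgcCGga

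The 7 stretches lie, in this order, at chr7:67372859-67373108 (minus strand), chr11:102319593-102319842 (minus strand), chr16:49855404-49855653 (plus strand), chr4:103215177-103215426 (minus strand), chr4:129696846-129697095 (minus strand), chr16:96280782-96281031 (plus strand) and chr16:16560220-16560469 (minus strand). They held 21 CG dinucleotides in Mef2a, 8 in Ubtf, 30 in Cd47, 22 in Slc35d1, 12 in Tmem39b, 20 in B3galt5 and 5 in Fgd4. The learning peak was 1862 bp wide at Mef2a, 1535 bp at Ubtf and 1348 bp at Cd47, over homecage peaks of 1283, 2715 and 714 bp. At Slc35d1, Tmem39b and B3galt5 the learning peaks were 857, 753 and 574 bp wide. The B3galt5 start lay 38.9 kb from the nearest gene end, whereas the other 5 with a peak lay 3.50 to 6.99 kb inside.

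The share of peaks with a homecage partner was lower deep inside genes than at gene ends and, under the main settings, slightly higher than outside genes. Of the 4726, 1813 did so (38.4%, exact Clopper-Pearson 95% interval 37.0 to 39.8%) and 2913 did not. The share over all learning peaks on chromosomes 1 to 19 was 42.8%. It was 68.9% at gene ends (67.2 to 70.5%), 35.9% outside genes (34.8 to 37.0%) and 27.3% inside genes of 500 kb or more (24.1 to 30.7%). The share depends on what counts as overlap, being 12.2% where at least 50% of both peaks must overlap and 63.1% where a homecage peak within 1 kb counts. Deep inside genes it was also 33.6% without 1-Mb bins of 10 or more of these peaks and 34% with windows of 5 kb. With genes under 200 kb it was 40.6%, and among peaks of at least 500 bp 47.8%. The share outside genes was not recomputed under these settings, so its order relative to gene interiors holds for the main settings only. With 1 library a condition no test between conditions is possible. All intervals cover counting error only, and neighbouring peaks are not independent. The homecage list is much the longer, with 332168 peaks against 16243, and 105184 of its peaks lay deep inside genes by the same rule. Read depth is unknown for both lists, and its part in the overlap was not tested.

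Per length of sequence, learning peaks were far sparser deep inside genes than at gene ends and slightly denser than outside genes. Gene interiors of 764.9 Mb held 6.18 learning peaks per Mb (exact Poisson 95% interval 6.00 to 6.36), gene ends 42.4 (40.9 to 43.9), sequence outside genes 5.21 (5.09 to 5.34) and the interior of genes of 500 kb or more 4.08 (3.79 to 4.39). The homecage list held 138 peaks per Mb deep inside genes, 226 at gene ends, 133 outside genes and 129 in the longest genes. The density deep inside genes was thus 1.19 times that outside genes in the learning list (1.14 to 1.23) and 1.03 times in the homecage list (1.02 to 1.04). The length outside genes was the span from the first to the last peak of each chromosome less the other classes. Assembly gaps and sequence where reads cannot be placed were not taken out of any class. Their part in these ratios was not tested.

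The peaks with a homecage partner were the wider ones. Their median width was 353 bp (25th to 75th percentile 229 to 498 bp), and 24.9% reached 500 bp. Those without a partner had a median of 283 bp (187 to 396 bp), and 7.42% reached 500 bp. By quartile of width the overlapping share was 28.8% in the narrowest, then 34%, 35.5% and 55.3% in the widest (52.4 to 58.1%). A wider peak also has more room to meet another. Of the 2913 without a partner, 1168 (40.1%) had a homecage peak within 1 kb. Of all interior positions, 29.7% lie within 1 kb of a homecage peak deep inside a gene. That share counts single positions, including those under a homecage peak, so it is not a like measure for whole peaks without a partner.

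Within genes, learning peaks thinned out from the ends inwards, and homecage peaks did not. At 1 to 5 kb from the nearest end of a protein-coding gene there were 8.39 learning peaks per Mb (7.89 to 8.91), at 5 to 10 kb 6.55, at 10 to 20 kb 6.09, at 20 to 50 kb 5.41, at 50 to 100 kb 5.49 and beyond 100 kb 5.18 (4.66 to 5.73). Homecage peaks went from 131 per Mb (129 to 133) at 1 to 5 kb to 140 (137 to 142) beyond 100 kb. The share of learning peaks with a homecage partner was 53.5% at 1 to 5 kb and 25.7% beyond 100 kb (21.3 to 30.5%). The median peak with a partner lay 11737 bp from a gene end, and the median peak without one 19257 bp.

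The gradient was seen on the 5′ side of the genes, the side where transcription starts. Strand was known for 16288 of 20449 genes (79.7%) from the RefSeq promoter table. Each distance range used only those of them long enough to hold it on both sides. These were 10379 genes at 1 to 5 kb, 7399 at 5 to 10 kb, 4325 at 10 to 20 kb and 1603 at 20 to 50 kb. Values at different distances thus come from different sets of genes, and the sides at 1 distance from the same set. At 1 to 5 kb from the 5′ end there were 12.2 learning peaks per Mb (11.1 to 13.3), and at the same distance from the 3′ end 4.70 (4.06 to 5.42), a ratio of 2.59 (exact conditional 95% interval 2.19 to 3.08), and of 3.93 (2.47 to 6.51) among peaks of at least 500 bp. At 5 to 10 kb the ratio was 1.41 (1.17 to 1.70). At 10 to 20 kb it was 0.974 (0.813 to 1.17) and at 20 to 50 kb 0.995 (0.825 to 1.20), with intervals that include 1. In the homecage list the ratio at 1 to 5 kb was 1.13 (1.08 to 1.17), and 1.03 (0.986 to 1.07), an interval that includes 1, after peaks closer than 1 kb were merged. Leaving out 1 kb around internal start sites, an alternative added after the data were seen, lowered the learning ratio to 1.81 (1.50 to 2.17) and the homecage ratio to 1.08 (1.04 to 1.12).

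**Figure D1:**
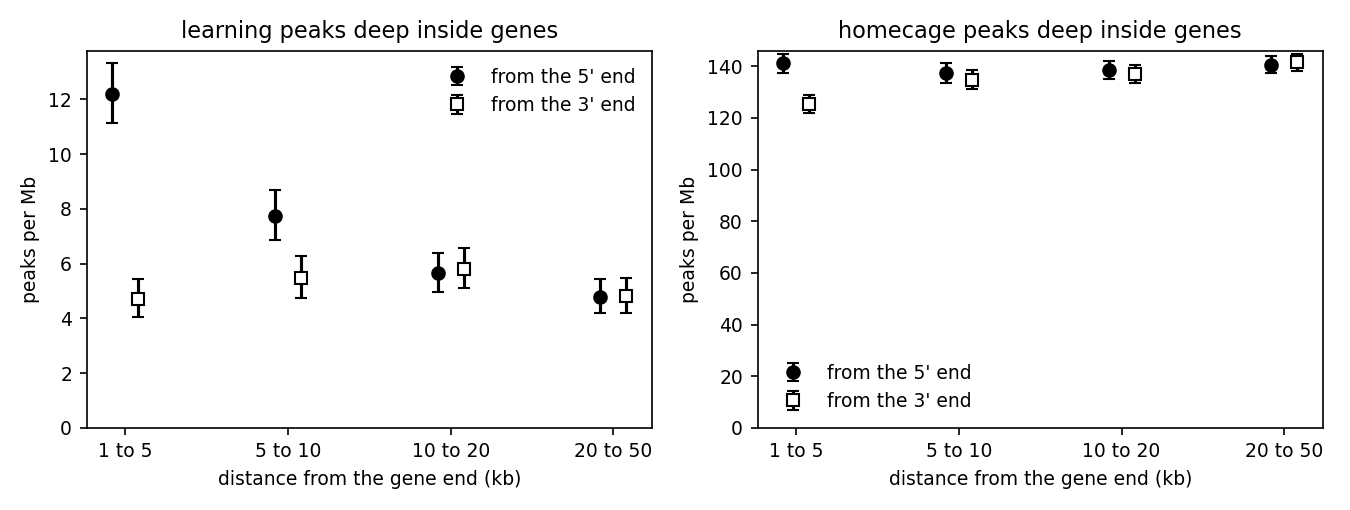
Peaks per Mb (vertical axis) by distance from the 5′ end (filled circles) or the 3′ end (open squares) of genes of known strand, for learning (left) and homecage (right) peaks deep inside genes. Bars are exact Poisson 95% intervals of counting error. The genes differ between distances, from 10379 genes at 1 to 5 kb to 1603 longer genes at 20 to 50 kb. The learning point at 1 to 5 kb from the 5′ end, 12.2, stands above all others, and the homecage points lie between 125 and 142.

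Alternative starts inside genes, from which a gene makes a shorter transcript, carried learning peaks far more often than interior sequence in general. RefSeq gave 3112 internal start sites of protein-coding genes, in 2521 genes, that lay deep inside a gene. A learning peak deep inside a gene lay within 500 bp of 389 of them, 12.5% (11.4 to 13.7%). Of all interior positions, 0.814% lie that near to such a peak, a 15.4-fold difference. With peaks of at least 500 bp only, 3.95% of the starts had a peak. For homecage peaks the values were 37.6% of starts (35.9 to 39.3%) and 18.7% of positions, a 2.01-fold difference. The interior of genes is not matched to the starts in base composition, and the part of composition in these folds was not tested.

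The peaks sat downstream of the start. At 300 bp downstream, 6.78% of internal starts were covered by a learning peak, compared with 3.60% at the start itself, 2.12% at 300 bp upstream and a mean of 0.409% at 3 to 5 kb on either side. The highest value was 16.6 times that flank. In the homecage list the highest value was also at 300 bp downstream, 20.1%, which was 3.12 times its flank of 6.45%. Of the 402 pairs of a start and a nearby learning peak, 297 (73.9%) had the peak centre downstream, at a median of 238 bp from the start over all pairs. The frequency was 14.7% for starts 1 to 5 kb from a gene end, 11.3% at 5 to 20 kb and 10.3% beyond 20 kb (8.17 to 12.7%). The share of all interior positions within 500 bp of a learning peak was also lower farther inside, 1.07%, 0.839% and 0.714% in the same order.

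**Figure D2:**
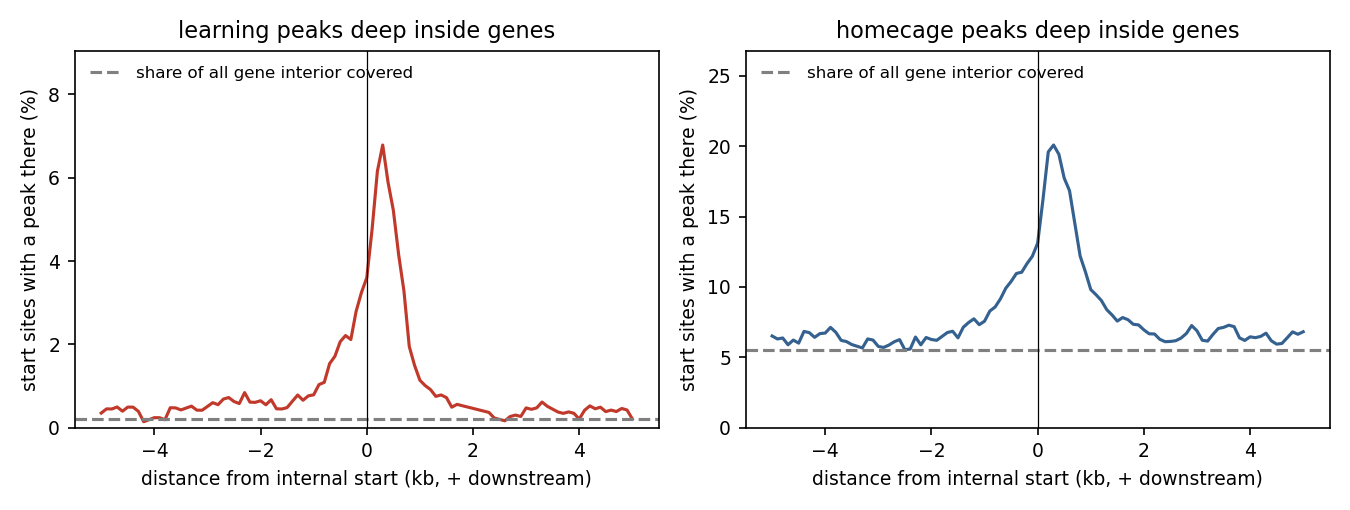
Share of internal start sites of protein-coding genes covered by a learning (left) or homecage (right) peak, in percent, against distance from the start in kb, with positive values downstream. The dashed line is the share of all gene interior that such peaks cover, 0.213% and 5.51%. Both curves are highest 300 bp downstream, at 6.78% and 20.1%.

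Internal starts with a high CG content carried a learning peak more often than the others. A window of 300 bases around each start (250 before, 50 after) was called CpG-rich at a G+C content of at least 55% and a ratio of observed to expected CG of at least 0.6. Of 874 CpG-rich internal starts, 259 (29.6%, 26.6 to 32.8%) had a learning peak within 500 bp, against 12.5% of all internal starts. Of 2238 CpG-poor starts, 130 (5.81%, 4.88 to 6.86%) had a peak. Homecage peaks were near 60.3% of CpG-rich and 28.7% of CpG-poor starts. The starts of long noncoding RNAs inside protein-coding genes had the same order, with 40 of 187 CpG-rich starts (21.4%, 15.7 to 28.0%) and 32 of 2064 CpG-poor starts (1.55%, 1.06 to 2.18%) near a learning peak. Some of these peaks were also counted at an internal protein-coding start, as in Slc35d1 and Dlgap4, so the noncoding starts are not an independent set.

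**Figure D3:**
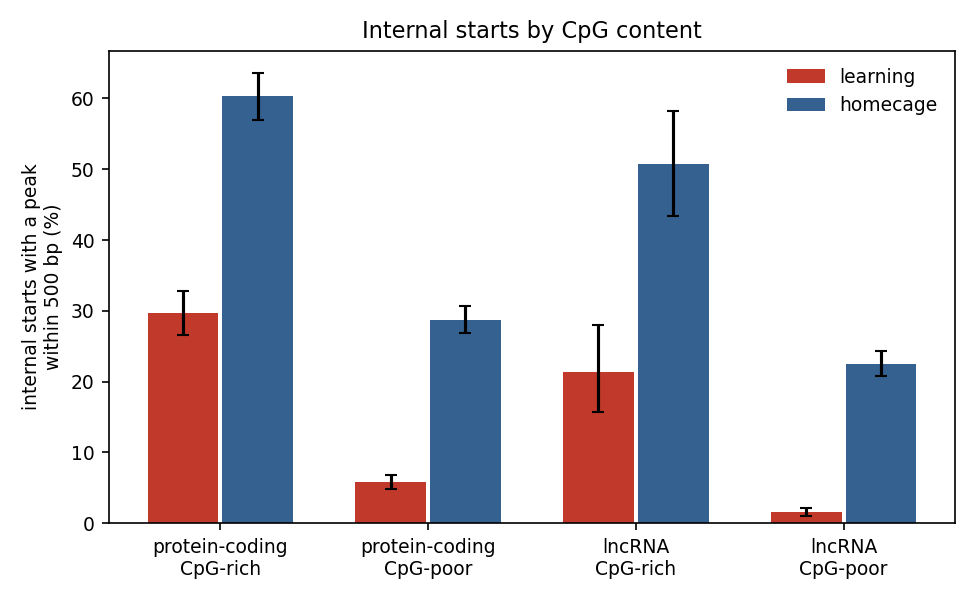
Percentage of internal starts with a learning (red) or homecage (blue) peak deep inside a gene within 500 bp, by CpG class and by type of transcript. Bars are exact Clopper-Pearson 95% intervals. CpG-rich starts stand above CpG-poor ones in both lists, 29.6% against 5.81% for learning peaks at protein-coding genes.

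For comparison, the starts at gene ends were counted in the same way. Of 15722 protein-coding starts at gene ends, 15.1% (14.5 to 15.6%) had any learning peak within 500 bp, 26.3% of the CpG-rich ones (25.3 to 27.3%) and 6.24% of the CpG-poor ones (5.75 to 6.77%). The overall share was higher at gene ends, and the 2 CpG classes each had intervals that overlapped those of the internal starts. Overlapping intervals do not show that the shares are equal.

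The composition of the windows differed by median and by motif. The 389 windows with a learning peak had a median G+C content of 65.0% and 24 CG dinucleotides, the 857 with a homecage peak alone 56.7% and 10, and the 1866 with neither 51.7% and 5. The GC box, searched as GGGCGG on both strands, the sequence bound by Sp1-family factors, was in 70.2% of the windows with a learning peak, 44.2% of those with a homecage peak alone, 27.2% of those with neither, and 46.4% of all 18961 protein-coding start windows. Within the CpG-rich class the difference was small, 86.1% with a learning peak and 78.9% without. Within the CpG-poor class it was 38.5% against 19.1%. These letters overlap with CG content by construction.

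Other short motifs were searched in the same windows. The core of the cAMP response element, TGACG, bound by CREB, was in 23.7% of the windows with a learning peak, 17.4% of those with neither peak and 23.6% of all start windows. Within the CpG-rich class it was in 29.7% of the windows with a peak and 31.2% of those without. In the CpG-poor class the values were 11.5% and 15.5%. The ETS-factor core CCGGAA was in 19.3% with a learning peak, 10.1% with neither and 18.5% of all. Its order differed between the classes. It was in 21.6% of the CpG-rich windows with a peak and 27.6% of those without, but in 14.6% and 7.54% of the CpG-poor ones. TATAAA, the TATA box, was in 6.17% with a learning peak, 13.6% with neither and 13.1% of all. By class it was in 4.63% of the CpG-rich windows with a peak and 2.76% without, and in 9.23% and 15.0% of the CpG-poor ones. All motifs were searched on both strands, and a match says only that the letters occur.

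Most learning peaks deep inside genes lay away from these starts. Of the 4726, 373 (7.89%, 7.14 to 8.70%) lay within 500 bp of an internal protein-coding start, against 1.12% of the homecage peaks deep inside genes (1.05 to 1.18%). Of these 373, 281 (75.3%, 70.6 to 79.6%) overlapped a homecage peak, compared with 35.2% (33.8 to 36.6%) of the peaks elsewhere in gene interiors. The difference was present in each quartile of width, 66.1% against 26.7% in the narrowest and 86.7% against 50.7% in the widest. The other 4353 peaks lay at no internal start of this kind in the table.

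The peaks were spread over many genes with 1 or 2 each. Of 18112 genes with interior sequence, 2965 (16.4%) held at least 1 of the peaks. Of these hosts 2085 (70.3%) held 1 peak, 531 held 2, 178 held 3 and 22 held 10 or more. Hosts were long, with a median of 71.2 kb against 17.2 kb for the other genes, and 40.8% of genes in the longest length quartile were hosts against 2.30% in the shortest. All of a host's peaks had a homecage partner in 777 genes, none had in 1715, and 473 genes held both kinds. Homecage peaks were also present in the interior of 97.8% of hosts, but the same share over all eligible genes is not given here. Such peaks numbered 138 per Mb of interior over all eligible genes and hosts were long. The 97.8% thus cannot be read as particular to hosts.

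At 696 of the hosts a learning peak was also present at a gene end (23.5%, 22.0 to 25%), as at 17.9% of all eligible genes. Within the longest length quartile the values for hosts and other genes were 24.2% (22.2 to 26.2%) and 21.4% (19.9 to 23.0%). Their intervals overlap, which does not show that the values are equal. Within the shortest quartile they were 27.9% (19.5 to 37.5%) and 14.0% (13 to 15.0%). Most hosts therefore had no learning peak at either end, but this absence was still more frequent over all eligible genes.

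Genes with the most peaks were mainly members of repeated gene clusters. The zinc finger genes Zfp978 and Zfp993 on chromosome 4 held 63 and 50 peaks, of which 48 and 39 overlapped a homecage peak. On chromosome 1 the predicted genes Gm7592 and Gm38510 held 33 and 31, C130026I21Rik 15 and Mroh2a 15. Sfi1, a centrosome gene on chromosome 11, held 27, and 26 of these overlapped a homecage peak. Rex2 on chromosome 4 held 20 and Gm21154 on chromosome 14 held 19. Among hosts of at least 3 peaks, the highest numbers of peaks per kb of interior were in Mroh2a (0.479), Sfi1 (0.399), Tcp10c (0.387) and Zfp992 (0.380).

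Reads cannot always be placed in near-identical gene copies, and how such reads were treated is not given in the sources used here, so the peaks in these clusters are uncertain. Overlapping gene models there also count the same peak for more than 1 gene, and 96 of the 4726 peaks lay in 2 or more genes. Bins of 1 Mb with 10 or more of the peaks numbered 47 of 1443 and held 860 peaks (18.2%), of which 59.7% overlapped a homecage peak. Without those bins, an alternative added after the data were seen, 3866 peaks were left and the overlapping share was 33.6% in place of 38.4%.

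Nfix, which is not part of a repeated cluster, was also among the 10 hosts with most peaks. It encodes a nuclear factor I transcription factor of neural stem cells and the developing hippocampus. Its 94.5 kb of interior on chromosome 8 held 19 learning peaks, or 201 per Mb, beside 40 homecage peaks. Of the 19, 15 overlapped a homecage peak. Their widths ran from 146 to 1213 bp, and the widest, at chr8:84784780-84785992, overlapped a homecage peak of 1116 bp. A peak of 1113 bp at chr8:84729207-84730319 had no partner, but the nearest homecage peak was 87 bp away. A peak of 507 bp at chr8:84779366-84779872 lay within 500 bp of an internal start and overlapped a homecage peak of 1835 bp.

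Other such genes with 10 or more peaks, named after their values were seen, were Gse1, Tcf4, Zmynd8 and Msra. Gse1, a coiled-coil protein found with histone deacetylase complexes, held 14, of which 7 overlapped a homecage peak. In Gse1 all 14 lay between 170 and 327 kb from the 5′ end of a gene of 352.9 kb. Tcf4, a neuronal basic helix-loop-helix factor, held 13, 8 with a partner. Zmynd8, a reader of modified histones, held 10, 8 with a partner, and 7 of these 10 peaks lay between 8.59 and 23.9 kb from its 5′ end, where 4 of its 5 internal starts are. Msra, which repairs oxidised methionine, held 10, 4 with a partner. Nfix also had 1 at a gene end. None of Gse1, Tcf4, Zmynd8 and Msra did.

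**Figure D4:**
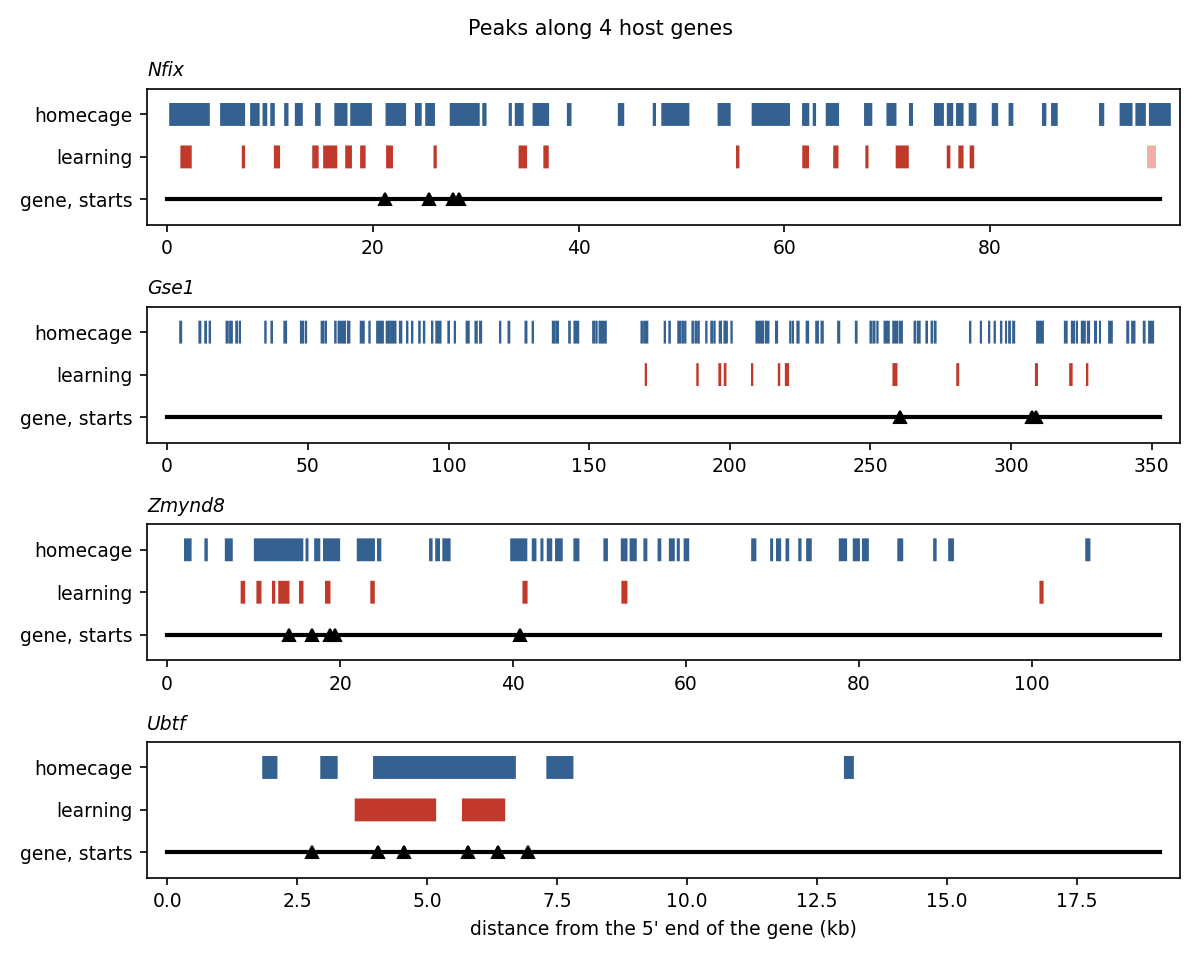
Peaks along Nfix, Gse1, Zmynd8 and Ubtf, in kb from the 5′ end of each gene. Red bars are learning peaks deep inside the gene (the pale bar in Nfix lies at a gene end), blue bars are homecage peaks, and triangles are internal start sites. Thin bars are drawn at a minimum width. Ubtf has 2 learning peaks, of 1535 and 801 bp, that overlap 1 homecage peak of 2715 bp, and 4 of its 6 internal starts lie inside these peaks.

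The widest learning peaks with a homecage partner were in the repeated genes Sfi1 (4605, 2774 and 2275 bp, all over 1 homecage peak of 15703 bp), Zfp600 (2794 bp) and Zfp985 (2081 bp). Without a partner the widest peak was 1229 bp at chr5:34233185-34234413 in Zfyve28, which encodes a protein of endosomes. Chd9, a chromatin remodeller, had 1163 bp at chr8:90955506-90956668, 98.4 kb from a gene end. Esr1, oestrogen receptor alpha, had 1147 bp at chr10:4913749-4914895, 91.3 kb from a gene end, and Slc45a4, a solute carrier, 1034 bp at chr15:73622957-73623990. The nearest homecage peak lay 1736 bp away at Zfyve28, 1637 bp at Chd9, 33 bp at Esr1 and 3705 bp at Slc45a4. At Esr1 and Nfix, peaks of both lists thus lay side by side without touching.

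Lists of genes by function were set against the 6.25 peaks per Mb and the 16.4% of hosts over all eligible genes. The lists were chosen with earlier results of these data known, so their intervals give no independent support for a difference. Counts of peaks with or without a homecage partner have as background the 38.4% with and 61.6% without one over all peaks deep inside genes. A list named excitatory neuron identity, of transcription factors and receptors, had the highest density of the 13 lists. It held 35 peaks in 12 of 27 genes (44.4%), or 23.6 per Mb (16.4 to 32.8), 3.80 times that of other genes (2.64 to 5.29). Nfix, described above as a factor of neural stem cells and the developing hippocampus, held 19 of the 35, so the name does not fully describe the genes behind this density. Without Nfix, an alternative added after the data were seen, the density was 11.5 per Mb (6.58 to 18.7) and the ratio 1.85 (1.05 to 3.0). With genes of any length the ratio was 2.19 (1.58 to 2.96), and among peaks of at least 500 bp 6.13 (2.64 to 12.2). The homecage density of the list was 189 per Mb with Nfix and 173 without, against 138 for all genes. Other hosts included Nfib (3 peaks), a relative of Nfix, Mef2c and Lhx2 (2 each), and Mef2a, Neurod2, Tbr1, Emx1, Mef2d, Epha7 and Neurod1 (1 each).

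Glutamate signalling genes held many peaks but at a density whose ratio to other genes had an interval that includes 1. With genes of any length the ratio was 0.748 and its interval, 0.579 to 0.951, excluded 1. Of 46 genes 20 (43.5%) were hosts of 33 peaks, 5.10 per Mb, a ratio of 0.815 (0.560 to 1.15), and their median length of 85.1 kb is well above the 21.1 kb of all eligible genes. Of the 33 peaks 12 (36.4%) overlapped a homecage peak. Grin2a, the NMDA receptor subunit GluN2A, held 3 peaks of 371 to 521 bp, 1 with a partner. Shank1, a postsynaptic scaffold, held 3, at widths of 215, 472 and 498 bp, 2 with a partner. Shisa6 and Grin2b also held 3 each, and the 3 in Grin2b had no partner.

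GABA signalling genes had 10 peaks in 6 of 22 genes, 3.51 per Mb, a ratio of 0.560 (0.269 to 1.03), or 0.485 (0.233 to 0.893) with genes of any length. Gabrb1, a GABA-A receptor subunit, held 3 and Gabbr2, a GABA-B receptor subunit, held 3, of which 1 and 0 had a partner. Synaptic vesicle release genes had 22 peaks in 13 of 33 genes, a ratio of 0.860 (0.538 to 1.30), with 4 in Cadps, which primes vesicles, and 3 in Syn3, a synapsin. The 4 in Cadps had no partner.

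Both lists of ion channel genes had ratios whose intervals include 1, and in each an alternative limit on gene length gave an interval that excludes 1, on opposite sides. Potassium channel genes had 31 peaks in 16 of 33 genes, a ratio of 1.03 (0.702 to 1.47), led by Kcnc2 (5 peaks), a Kv3 channel of fast-spiking neurons, and Kcnn2 (4), a calcium-activated channel. With genes shorter than 200 kb the ratio was 1.81 (1.03 to 2.94). Calcium, sodium and HCN channel genes had 23 peaks in 12 of 30 genes, a ratio of 0.705 (0.447 to 1.06), or 0.660 (0.445 to 0.943) with genes of any length. In that list Itpr1 and Itpr2, the inositol trisphosphate receptors that release calcium from stores, held 6 and 4. Of the 6 in Itpr1, 4 had a partner, and of the 4 in Itpr2, 0.

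Chromatin regulator genes had 41 peaks in 27 of 70 genes, 7.45 per Mb, a ratio of 1.19 (0.856 to 1.62), or 1.85 (0.844 to 3.54) among peaks of at least 500 bp. Dnmt3a, the de novo DNA methyltransferase, held 4, and its widest, 920 bp at chr12:3806543-3807462, lay within 500 bp of an internal start over a homecage peak of 2916 bp. Cdyl, a chromodomain protein that acts on crotonyl-CoA and lowers histone crotonylation, held 3. The widest of these, 611 bp at chr13:35741507-35742117, was likewise at an internal start, over a homecage peak of 450 bp. Crebbp, which encodes the crotonylation writer CBP, held 2, 1 with a partner.

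Activity-induced genes are short, with a median of 11.6 kb, and had 4 peaks in 4 of 35 genes. None of the 4 peaks had a homecage partner, and 61.6% of all peaks deep inside genes had none either. The hosts were Dusp6, a phosphatase that limits ERK signalling (750 bp), Crem, a cAMP-responsive factor (242 bp), Fosl2 (147 bp) and Egr3 (146 bp). Housekeeping genes had 4 peaks in 4 of 26 genes, 1 each in Ywhaz, a 14-3-3 protein (1168 bp, over a homecage peak of 1532 bp), Tfrc, the transferrin receptor (419 bp), Actb and Sdha. The interior of these lists is so small, 0.550 and 0.375 Mb, that the ratios of 1.17 and 1.71 had intervals of 0.317 to 2.98 and 0.466 to 4.38.

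Glial genes were also represented. Oligodendrocyte and myelin genes had 8 peaks in 4 of 27 genes, a ratio of 1.40 (0.602 to 2.75). Of these 4 were in Mbp, myelin basic protein, with widths of 257 to 715 bp and a homecage partner for each. Enpp6, an enzyme of differentiating oligodendrocytes, held 2 with no partner. Astrocyte genes had 8 peaks in 4 of 24 genes, a ratio of 0.639 (0.276 to 1.26), with 4 in Slc4a4, a bicarbonate cotransporter, and 2 in Prex2, all 6 without a partner. Microglia genes had 3 peaks in 3 of 24 genes, a ratio of 0.438 (0.0903 to 1.28), 1 each in Cx3cr1, the fractalkine receptor, Dock8 and Runx1.

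The genes of a list named muscle, collagen and liver, which also holds Tg and Cftr, served as genes used mainly outside the brain. Their expression in the hippocampus was not examined here. They had 11 peaks in 7 of 40 genes (17.5%), 4.74 per Mb, a ratio of 0.757 (0.378 to 1.36), 3 of them in Ttn, titin, and 2 in Nebl, nebulette. None of the 11 overlapped a homecage peak, and 61.6% of all peaks deep inside genes did not either. The upper 95% limit of the ratio is above 1, so a lower density than in other genes was not detectable. Single learning peaks without a homecage partner occurred in these genes at widths of 146 bp and above, the smallest width in the list.

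**Figure D5:**
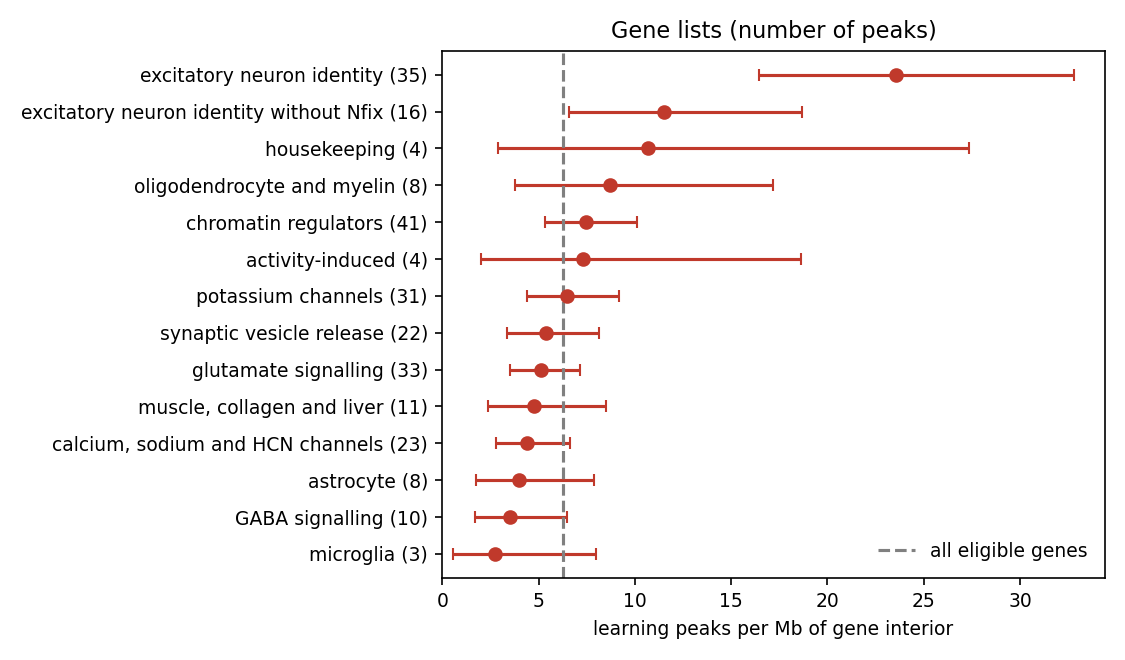
Learning peaks per Mb of gene interior (horizontal axis) for each gene list, with the number of peaks in brackets. Bars are exact Poisson 95% intervals of counting error, and the dashed line is all eligible genes at 6.25 per Mb. The lists were chosen with earlier results of these data known. The excitatory neuron identity list lies above the line with and without Nfix, at 23.6 and 11.5 per Mb, and the intervals of the other lists include the line.

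Noncoding genes that lie inside the hosts were counted by type. Long noncoding RNA genes were overlapped by 304 of the peaks (6.43%, 5.75 to 7.17%) and by 4.95% of the homecage peaks deep inside genes, and occupied 4.43% of the interior. Pseudogenes were overlapped by 72 (1.52%, 1.19 to 1.92%) and by 0.521% of homecage peaks, and occupied 0.371% of the interior. Both shares of the interior count single bases, so they are not a like measure for whole peaks. How many of the 72 lay in the repeated gene clusters is not given here. No snoRNA, snRNA or tRNA gene was overlapped, and with a limit of 3 counts, a count of 0 of 4726 allows a share of up to 0.0635% (Clopper-Pearson upper limit 0.0780%).

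The 3 microRNA genes under a peak were Mir3971 inside Slc43a2, Mir6991 inside 2700081O15Rik, and Mir1893 inside Epc1. The peak over Mir3971, chr11:75551427-75552221, was 795 bp wide and overlapped a homecage peak of 898 bp. The peak over Mir6991, chr19:7422399-7422864, was 466 bp wide and had no partner. Their mature sequences in RefSeq (GRCm38.p6), with the seed, bases 2 to 8, in capitals, are given to identify the loci, and no seed is shared between them.
mmu-miR-3971: cUCCCCACcccuguaccaguga
mmu-miR-6991-5p: uGGAGAACagggacugggccug
mmu-miR-6991-3p: gCAGCCCUuuguucuucuccag

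The density of the peaks also differed between chromosomes. The highest values were 9.64 per Mb on chromosome 4 (8.78 to 10.6) and 7.90 on chromosome 1 (7.20 to 8.64), which carry the zinc finger and Gm clusters, and the lowest 3.99 on chromosome 13 (3.33 to 4.74). Homecage peaks deep inside genes varied less, from 131 to 147 per Mb. The overlapping share ran from 23.3% on chromosome 13 to 51.1% on chromosome 4.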

How the data were processed

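Per the labels' titles, 2 of the 12 libraries of the series, learning and homecage pan-Kcr ChIP, have peak lists that were analysed here. The authors deposited each list as other values than counts or signal, namely chromosome, start, end and peak name. Per the peak names in the deposited files, broad peak calling used a p-value cutoff of 0.01 for each library on its own. Trimmomatic, BWA, MACS2 and mm10 are named in the submitters' processing notes. Versions, read filters and use of the input libraries are not given in the sources used here. The lists hold no enrichment or read counts, so depth is unknown and peaks could not be ranked by strength.

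Positions were compared with RefSeq genes and promoter windows of GRCm38.p6 (mm10), which give no exons. Peaks and intervals were counted with Python 3.11.15, pandas 2.3.3, numpy 2.4.6 and scipy 1.17.1, and the overlap functions were tested on simulated intervals. Start windows of a gene beginning within 300 bp of each other were joined. Shares have exact Clopper-Pearson, densities exact Poisson and ratios exact conditional 95% intervals. With 1 library a condition there is no test and no adjusted p. The 13 gene lists held 470 symbols, all matched. Named genes are the 10 hosts with most peaks, hosts of the 5 widest peaks with and the 5 without a homecage peak, the 2 genes with most peaks in each list, the 4 densest hosts with at least 3 peaks, and microRNA genes under a peak. The members and lists were chosen with earlier results of these data known. Alternatives changed the windows, gene lengths, overlap, merging, minimum width and the genes whose ends count.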

Additional observations from a re-analysis of the deposited data

Results flagged for a closer look

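Chromosome X lies outside the comparisons above. By the same rule its gene interiors of 33.3 Mb held 4 learning peaks, in Atg4a, Mid1 and Phf8, above the 3 that a count of 0 allows. The density was 0.120 per Mb (0.0327 to 0.307), against 6.18 on chromosomes 1 to 19, and the homecage list held 91 peaks there, 2.73 per Mb against 138. The cause of the low density in both lists was not tested.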

How the results depend on the processing

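No paired analysis was possible because there was 1 ChIP library for learning and 1 for homecage, so no replicate could be left out. Settings on dense bins, on 1 kb around starts and the start base, on Nfix and on internal starts were chosen after seeing the data. Under all alternatives 192 values were recomputed, of which 151 lay inside the original 95% interval (for counts, within 1.5 times), 41 lay outside it and 0 ratios with an interval that excludes 1 changed direction. Peaks of at least 500 bp left 667 peaks deep inside genes, with 47.8% overlapping a homecage peak, density ratios to sequence outside genes of 1.23 (learning) and 1.06 (homecage), 5′ to 3′ ratios of 3.93 and 1.25, and a peak near 3.95% (learning) and 18.5% (homecage) of internal starts. The overlapping share was 36.1% with windows of 2 kb, 34% with 5 kb, 36.9% with genes of any length, 40.6% with genes under 200 kb, 27.6% when 50% of the learning peak must overlap, 12.2% for 50% of both, 63.1% within 1 kb and 33.6% without dense bins. The learning density ratio was 1.14 with windows of 2 kb, 1.11 with 5 kb, 1.11 with genes of any length and 1.24 without the 54 bins of 1 Mb that held at least 20 learning peaks. The homecage ratio was 1.02 both with genes of any length and with merged peaks. The 5′ to 3′ ratio was 2.13 for learning peaks with windows of 2 kb and 1.03 (0.986 to 1.07, an interval that includes 1) for homecage peaks after merging, and windows of 5 kb leave no sequence for it. Internal starts with a learning peak were 10.6% with windows of 5 kb, 14.6% within 1 kb and 3.6% at the start base. The homecage values were 35.8%, 48.1% and 13.1%, and 35.5% after merging. With genes of any length the ratios of the glutamate, GABA and calcium, sodium and HCN channel lists had intervals below 1, and with genes under 200 kb that of potassium channels lay above 1. Among lists, astrocyte, microglia and muscle genes held no peak of at least 500 bp. The causes were not tested. Unknown depth limits every comparison between the lists.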
